A study of Mus musculus with 3 samples.

Results

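Barcodes rich in insulin RNA spanned a wide range of depth in these data, and 2 parts of that range, set by the choosing rule, are described here side by side. The barcodes were chosen by measured values. A barcode, the sequence that labels one droplet, was taken as insulin-rich when Ins1 and Ins2 made up at least 30% of its unique molecular identifiers (UMIs, each one captured RNA molecule), genes of the mitochondrial genome (mt-) made up at most 15%, and Gcg, Sst and Ppy each stayed under 5%. Insulin-rich barcodes with 500 to under 1000 genes are called shallow, and those with 2000 genes or more are called deep. Of 16162 barcodes, 1105 met these limits, 423 shallow and 682 deep. Mouse 1 gave 75 shallow and 80 deep barcodes, mouse 2 gave 289 and 277, and mouse 3 gave 59 and 325. Another 265 insulin-rich barcodes had 1000 to under 2000 genes and 409 had 250 to under 500, and these are given beside both sides where they help.

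The libraries were made with the 10x Genomics single-cell 3′ kit from dispersed pancreatic islets of female NOD-SCID mice that were 10 to 11 weeks old and non-diabetic. NOD-SCID is a non-obese diabetic background that carries the scid mutation and so lacks mature T and B cells. There are 3 libraries with no treatment or genotype contrast between them, and each is taken here as 1 mouse, which the labels do not state outright, so the p-values measure only the spread between these samples. The comparison is therefore within mice, between the shallow and the deep side of the same library.

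Pancreatic beta cells make, store and release insulin, and insulin RNA is by far their most abundant message. Their identity rests on transcription factors such as Pdx1, Nkx6-1 and Mafa, and their response to glucose on the transporter Slc2a2, the enzyme glucokinase and the KATP channel. Islets sit in an exocrine pancreas whose acinar cells make digestive enzymes, and RNA freed from broken cells during dissociation is known to enter every droplet at a similar amount, whether the droplet holds a whole cell or little else. A droplet with few UMIs of its own therefore shows a higher share of free RNA than a droplet with many.

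Depth across whole libraries was 32389170, 48076507 and 57849496 UMIs in mice 1, 2 and 3, over 6005, 4444 and 5713 barcodes. Barcode sequences occurred in more than 1 library, with 148 shared by mice 1 and 2, 9 by mice 1 and 3, and 13 by mice 2 and 3. Of the insulin-rich barcodes analysed, 21 carried a sequence shared by the first pair, 0 one shared by the second and 1 one shared by the third, and 2 sequences were members in both mice 1 and 2. Without shared barcodes 110 genes were higher and 17 lower in shallow barcodes, against 112 and 18 with them.

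The choosing rule used the number of genes, the insulin and mitochondrial shares and Gcg, Sst and Ppy, so these values describe the sides and test nothing. Shallow barcodes held a median of 3388, 4353 and 3156 UMIs in mice 1, 2 and 3, and deep barcodes 70641.5, 59882 and 35632. Median genes per barcode were 629, 807 and 695 on the shallow side and 5251.5, 4676 and 3991 on the deep side. Outside Ins1, Ins2 and Iapp, the amylin gene, shallow barcodes held a median of 1934, 2060 and 1078 UMIs and deep barcodes 22026, 18122 and 12035. The 42 barcodes up to 50 genes above the limit of 500 had a median of 2664.5 UMIs and the 44 up to 50 genes below it had 2597.5. At the limit of 1000 genes, the 39 up to 50 genes below had 5072 and the 43 above had 5870. At the limit of 2000 genes, the 5 up to 100 genes above had 14336 and the 10 below had 12675. Gm42418 went from 20.1% of UMIs below to 14.4% above 500 genes and from 4.01% below to 2.14% above 2000 genes, and mean Malat1 per barcode from 74.6 UMIs below to 46.2 above 1000 genes. At shallow depth, 36 barcodes had an insulin share of 30 to 35% and 44 had 25 to 30%, and their acinar shares were 11.3% and 12.8%.

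The label of these barcodes rests on insulin, so beta-cell identity was also read from 12 other markers (Pdx1, Nkx6-1, Mafa, Neurod1, Slc2a2, G6pc2, Ucn3, Slc30a8, Pcsk1, Trpm5, Prlr and Glp1r). Deep barcodes carried a mean of 10.9, 10.8 and 10.8 of the 12 in mice 1, 2 and 3, and shallow barcodes 3.88, 4.45 and 4.68. For comparison, 768 barcodes with at least 3 endothelial or at least 3 macrophage markers, under 30% insulin and 500 genes or more (100, 188 and 480 in the 3 mice) carried 2.05, 1.44 and 0.548. These reference cells give a level of beta-cell RNA in cells that should lack it, but they are not a pure set. Of them 11, 18 and 28 also carried at least 3 alpha markers, and 15, 9 and 37 at least 3 delta markers. Their median depth was 9218.5, 5533 and 5211 UMIs, above that of the shallow barcodes, so the shallow side carried more beta markers from fewer UMIs.

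One gene model stands out in the shallow barcodes, Gm42418, annotated as a long intergenic noncoding RNA on the plus strand of chromosome 17 at 39846958 to 39848788 (GRCm38, GENCODE M21). It lies where ribosomal RNA sequence matches the genome, and the model AY036118 (39847113 to 39848035, minus strand) overlaps it, while Gm26917 (39843013 to 39846341, plus strand) lies beside it. The 3′ kit primes on runs of A. The window of Gm42418 printed here, chr17:39847137-39847202 of GRCm38 on the plus strand, holds the longest A run of the 1831-base transcript, 6 bases at transcript positions 210 to 215, shown in capitals because a kit that primes on A runs could start there.
Gm42418: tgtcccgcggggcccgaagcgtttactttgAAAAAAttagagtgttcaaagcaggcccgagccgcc
Whether reads began at this run was not tested. AY036118 lies wholly inside Gm42418 on the other strand, and each had UMIs of its own. It is not stated whether the counting used strand, so how well their reads were told apart is not known.

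Gm42418 made up 17.6%, 7.88% and 1.38% of all UMIs in the shallow barcodes of mice 1, 2 and 3 and 1.31%, 0.737% and 0.283% in the deep ones. The shallow side was higher in 3 of 3 mice, by 8.19 ± 7.66 percentage points (SD, n = 3 mice). With 3 pairs an exact two-sided sign-flip test cannot give a p under 0.25, and it gave 0.25 here. Counted per barcode the order turned. The median was 662, 361 and 44 Gm42418 UMIs in shallow barcodes, 857, 416 and 74 in deep barcodes, and 750.5, 419.5 and 47 in the reference cells. Shallow barcodes thus carried 0.77, 0.87 and 0.59 of the deep median, although their total UMIs were many times fewer. The mice stood far apart, mouse 1 highest and mouse 3 lowest, in all 3 kinds of barcode. In the edgeR fit, on UMIs summed per mouse and side with the mouse as block and without Ins1, Ins2 and Iapp, Gm42418 was higher in shallow barcodes by 3.22 on the log2 scale (SE 0.56, adjusted p = 1.17e-06). The call was lost without the block, without mouse 2, with every barcode thinned to 500 UMIs and with the deep side limited to 2000 to under 3000 genes, and the log2 change ranged from 1.58 to 3.72 over all 16 alternatives. AY036118 was higher by 2.32 (SE 0.23, adjusted p = 1.13e-21), and Gm26917 by 0.75 without passing (adjusted p = 0.0524).

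Acinar RNA showed the flattest profile per barcode. Of 26 acinar genes listed, 25 are in the annotation of the files and all 25 were counted on both sides. The summed acinar share of UMIs was 2.68%, 6.63% and 0.551% in shallow barcodes and 0.13%, 0.444% and 0.0557% in deep ones, a difference of 3.08 ± 2.88 percentage points (SD, n = 3 mice) with the shallow side higher in 3 of 3 mice (exact two-sided p = 0.25, the smallest possible). Per barcode, however, the median was 71, 259 and 15 acinar UMIs on the shallow side, 84, 237 and 16 on the deep side and 88, 247 and 17 in the reference cells. Within each mouse the 3 medians lay close together, while mouse 2 had far more than mouse 3 in every kind of barcode. Prss2, a trypsinogen gene, averaged 9.0, 28.8 and 1.5 UMIs per shallow barcode, 9.2, 29.3 and 1.9 per deep barcode and 12.9, 26.1 and 2.7 per reference cell.

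Malat1, a nuclear noncoding RNA, and insulin behaved in the other way. The median was 19, 29 and 16 Malat1 UMIs in shallow barcodes against 861, 666 and 270 in deep ones, and the reference cells held 252.5, 161.5 and 111.5. All 3 shallow medians lay below every reference median. As a share of all UMIs, Malat1 averaged 1.03% in shallow and 1.02% in deep barcodes over the 3 mice, and 2.42% in reference cells. Its shallow share was 0.78, 0.83 and 1.59 times the deep one in mice 1, 2 and 3. The near-equal means thus hide opposite directions. As a share of UMIs outside insulin and Iapp, the ratios were 0.46, 0.53 and 1.49. Insulin medians were 1379, 2135 and 1896 UMIs in shallow barcodes and 46380, 41412 and 21637 in deep barcodes, and 474.5, 267 and 69 in the reference cells. Insulin thus lay above the reference level in the shallow barcodes of each mouse, by 2.91, 8.00 and 27.5 times, while Malat1 lay below it. As insulin share chose the barcodes, the first of these ratios is a description.

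**Figure D1:**
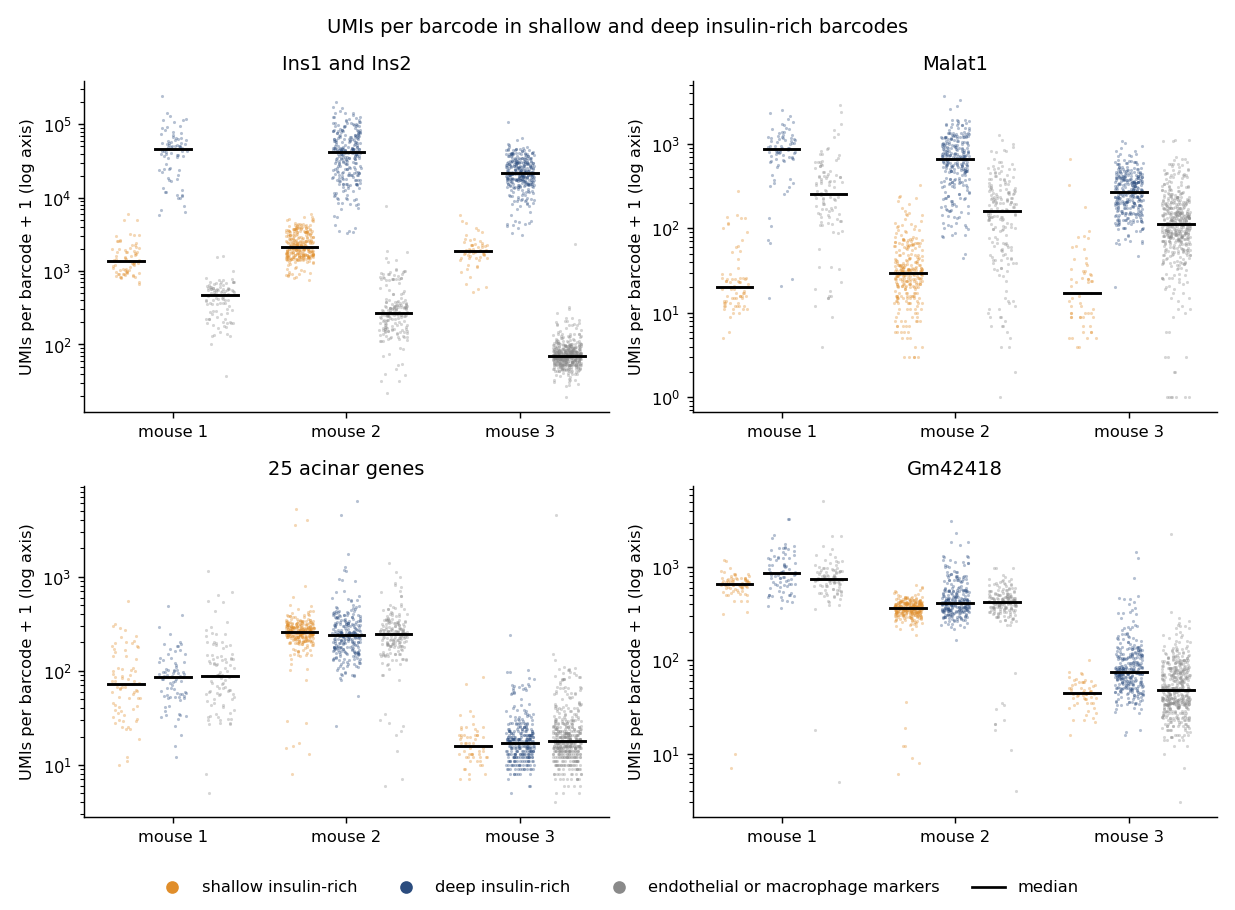
UMIs per barcode plus 1 (log axis) of Ins1 and Ins2, Malat1, the acinar genes and Gm42418 by mouse, 1 point per barcode, with the median as a black line; orange is shallow, blue deep and grey the reference cells with endothelial or macrophage markers. Acinar medians are 71, 84 and 88 in mouse 1 for shallow, deep and reference barcodes, while Malat1 medians are 19, 861 and 252.5.

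The same contrast was seen along the number of genes. Between 500 and 750 genes the median barcode of mouse 2 held 1762.5 insulin, 19 Malat1, 229.5 acinar and 326.5 Gm42418 UMIs. With 4000 genes or more it held 54417 insulin, 798 Malat1, 236 acinar and 427 Gm42418 UMIs. In mouse 1 the acinar median was 63 at 500 to under 750 genes and 87 at 4000 or more, and in mouse 3 it was 15 and 16. Transcription factors of beta cells, summed over the 12 genes, had a median of 2 UMIs per barcode at 500 to under 750 genes in each mouse, and of 81, 70 and 49 at 4000 or more in mice 1, 2 and 3.

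**Figure D2:**
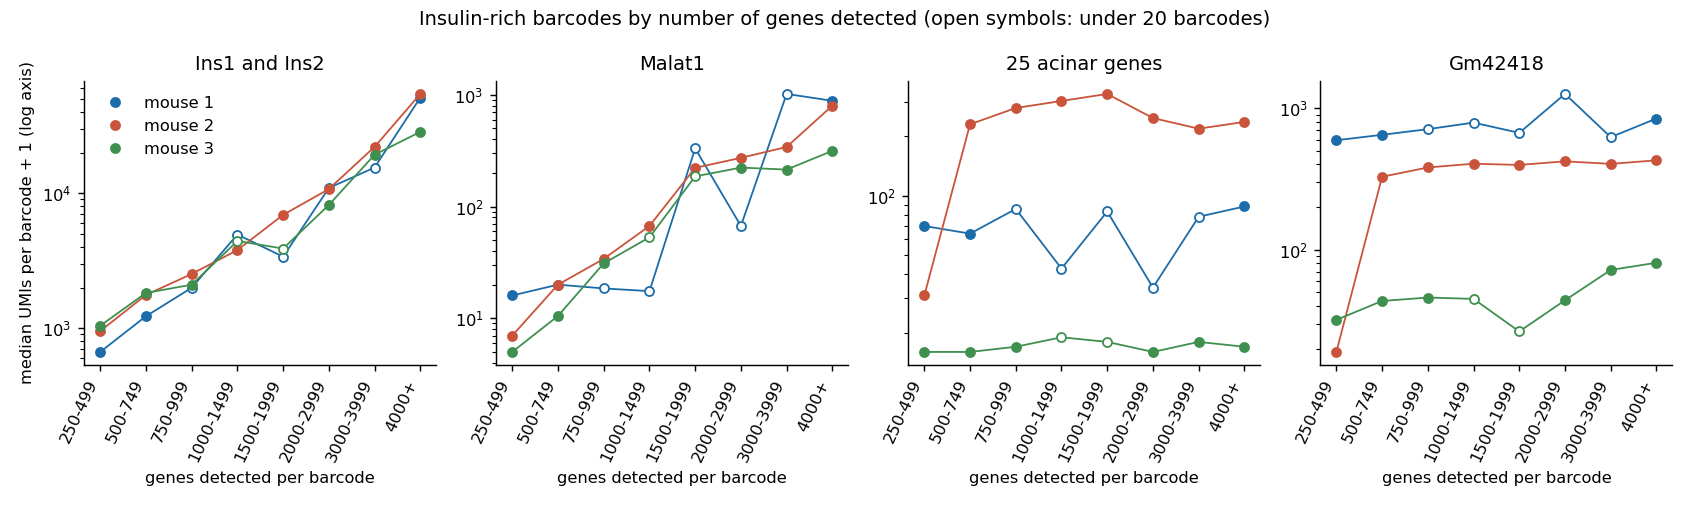
Median UMIs per barcode plus 1 (log axis) of 4 kinds of RNA against the number of genes detected in insulin-rich barcodes, 1 line per mouse, with open symbols for points of under 20 barcodes. In mouse 2 from 500 genes up, acinar medians stay between 218 and 328 while insulin medians climb from 1762.5 to 54417.

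Gene by gene, the ratio of UMIs per shallow barcode to UMIs per deep barcode had a median of 0.0395, 0.0576 and 0.0752 over all genes with at least 20 deep UMIs (8479, 10709 and 10297 genes in mice 1, 2 and 3). For acinar genes the median ratio was 0.976, 0.978 and 0.904. Cytoplasmic ribosomal proteins (0.0424, 0.0709 and 0.111) and beta-cell transcription factors (0.0307, 0.0448 and 0.0637) sat near the median of all genes. Genes of the mitochondrial genome stood between, at 0.135 and 0.121 in mice 1 and 2, and under the median of all genes at 0.0339 in mouse 3. Ratios of 0.5 or more were reached by 31, 54 and 58 genes, which was 0.366%, 0.504% and 0.563% of those measured. The limit of 20 deep UMIs leaves out genes that are scarce on the deep side, so genes with high ratios are missed and these shares are partly set by it. It kept 22, 25 and 23 acinar genes in mice 1, 2 and 3.

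In the sums, 9073 genes were tested and 1.43% passed a false discovery rate of 0.05, of which 112 were higher (1.23%) and 18 lower (0.198%) in shallow barcodes. The median log2 change of all genes was −0.05. This split rests on the TMM scaling, which gave the shallow sums factors of 0.64, 0.67 and 1.28 and the deep sums 1.18, 1.19 and 1.29. With total counts alone, 72 genes were higher and 339 lower, the share of calls in the higher direction went from 86.2% to 17.5%, and the median of all genes moved to −0.73. Of the calls, 59 higher and 13 lower genes were in none of the lists described below. DESeq2 called 77 genes higher and 0 lower (173 and 74 at an unadjusted p under 0.05). Leaving out mouse 2, which holds most of the shallow UMIs, left 44 higher and 1 lower.

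Acinar genes filled the top of the list. All 25 tested passed in the higher direction, with log2 changes from 3.77 to 4.32 and a median of 3.99, against −0.05 for all genes. Rnase1, the pancreatic ribonuclease, stood at 1829, 4332 and 243 CPM (counts scaled to a fixed library size with TMM factors) in shallow barcodes of mice 1, 2 and 3 and at 64.1, 226 and 20.2 in deep ones, so each shallow value lay above the deep one of its mouse (log2 4.30, SE 0.25, adjusted p = 3.61e-62). Clps, the colipase of fat digestion, had 5975, 8482 and 474 CPM against 192, 424 and 46.5. Reg1, a secreted protein of acinar cells, had 2950, 8024 and 451 CPM against 127, 451 and 43.8. The mice differed by an order of magnitude on both sides, and the block carries that spread. Without the block 0 of 25 passed, while their median log2 change was 4.11. Prss3 and Try5 of the trypsin family were higher by 5.45 (SE 0.37) and 4.02 (SE 0.31), but reads of such near-identical paralogs may have been split or lost in the authors' counting. Further acinar-type genes by the naming rule were Pla2g1b, the pancreatic phospholipase (4.32), Amy2a5, an amylase (4.32), Spink1, a trypsin inhibitor (4.20), Reg2 (4.15), Zg16 (4.14), Cel, a lipase (4.04) and Ctrc, a chymotrypsin (4.02). All of them passed in every tested alternative that kept the block and acinar genes. Prss3 and Amy2a5 were scarce on the deep side and passed the filter on low counts only with the shallow sums. Limiting the deep side to 2000 to under 3000 genes lowered the median acinar log2 change to 2.59, with 22 of 22 tested still higher.

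Hormones of other islet cells were higher too, 4 of 4 tested, with Gcg (glucagon, 3.88), Ppy (pancreatic polypeptide, 3.65), Pyy (peptide YY, 2.46) and Sst (somatostatin, 1.89) on the log2 scale. The rule capped the first, second and last of these at 5% of a barcode, so only Pyy was free of it. Pyy stood at 2475, 6397 and 7679 CPM in shallow barcodes and at 953, 928 and 867 in deep ones. In each mouse it was higher on the shallow side (edgeR, SE 0.27, adjusted p = 1.88e-17). The summed share of these hormones was 1.84%, 2.67% and 1.96% of UMIs on the shallow side and 0.46%, 0.276% and 0.277% on the deep side, a difference of 1.82 ± 0.521 percentage points (SD, n = 3 mice), given without a test because of the caps. Per barcode, median Gcg was 33, 17 and 32 UMIs in shallow barcodes, 43, 16 and 43 in deep ones and 34.5, 16 and 32 in reference cells. Sst departed from this in mouse 2. There the median shallow barcode held 47 Sst UMIs, against 4 in deep barcodes and 4 in reference cells, whereas mice 1 and 3 had 13 and 6 in shallow, 12 and 6 in deep barcodes.

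Delta-cell genes moved with Sst in mouse 2. The 4 tested of 6 delta markers were all higher, Cd24a by 2.07, Ly6h by 2.04, Hhex by 1.78 and Rbp4 by 1.57. Hhex, a transcription factor of delta cells, had 10.6, 77.5 and 11.6 CPM on the shallow side and 16.6, 17.2 and 4.46 on the deep side, so mouse 1 went the other way. Without mouse 2, 0 of 4 passed and Ly6h changed sign, to −0.48. Of the alpha markers, the amino acid transporter Slc38a5 was higher by 2.23, and it was lost without TMM scaling, without mouse 1, without mouse 2 and under the stricter insulin and hormone limits. Of 289 shallow barcodes in mouse 2, 45 carried at least 3 markers of 1 other cell type, 19 of them delta, 18 endothelial, 9 alpha and 5 macrophage, and some barcodes count under more than 1 type, while mouse 1 had 3 such barcodes and mouse 3 had 1. Deep barcodes carried such markers too, 30 of 80 in mouse 1, 68 of 277 in mouse 2 and 78 of 325 in mouse 3. The fit was repeated without such barcodes on either side. That left 72, 244 and 58 shallow and 50, 209 and 247 deep barcodes. The acinar result was then as large, with 25 of 25 higher at a median of 3.84, and 1 delta marker was left to test and did not pass.

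Endothelial and macrophage genes were higher in the sums at low levels. All 3 tested of 9 endothelial markers passed, led by the VEGF receptor Flt1 (4.65, SE 0.69), as did 4 of 5 tested of 9 macrophage markers, led by the lysozyme gene Lyz2 (4.97, SE 0.67). Over all genes tested, 1.23% were higher. Flt1 and Lyz2 were so scarce on the deep side that they passed the filter on low counts only through the shallow side. The filter thus partly fixed these counts, and they are a description. Flt1 stood at 31.7, 52.5 and 34.7 CPM on the shallow side, which was higher in 3 of 3 mice, and at 0.449, 1.07 and 4.46 on the deep side. The whole endothelial list summed to 12, 152 and 7 UMIs in the shallow barcodes and the macrophage list to 10, 115 and 26. Without mouse 2 none of either list passed, and without the barcodes that carry such markers no endothelial marker was left to test. Duct markers gave 0 of 4 tested past the threshold in either direction. Of the pericyte and fibroblast list 1 gene, Rgs5, was tested and did not pass, and the red blood cell list had none to test.

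**Figure D3:**
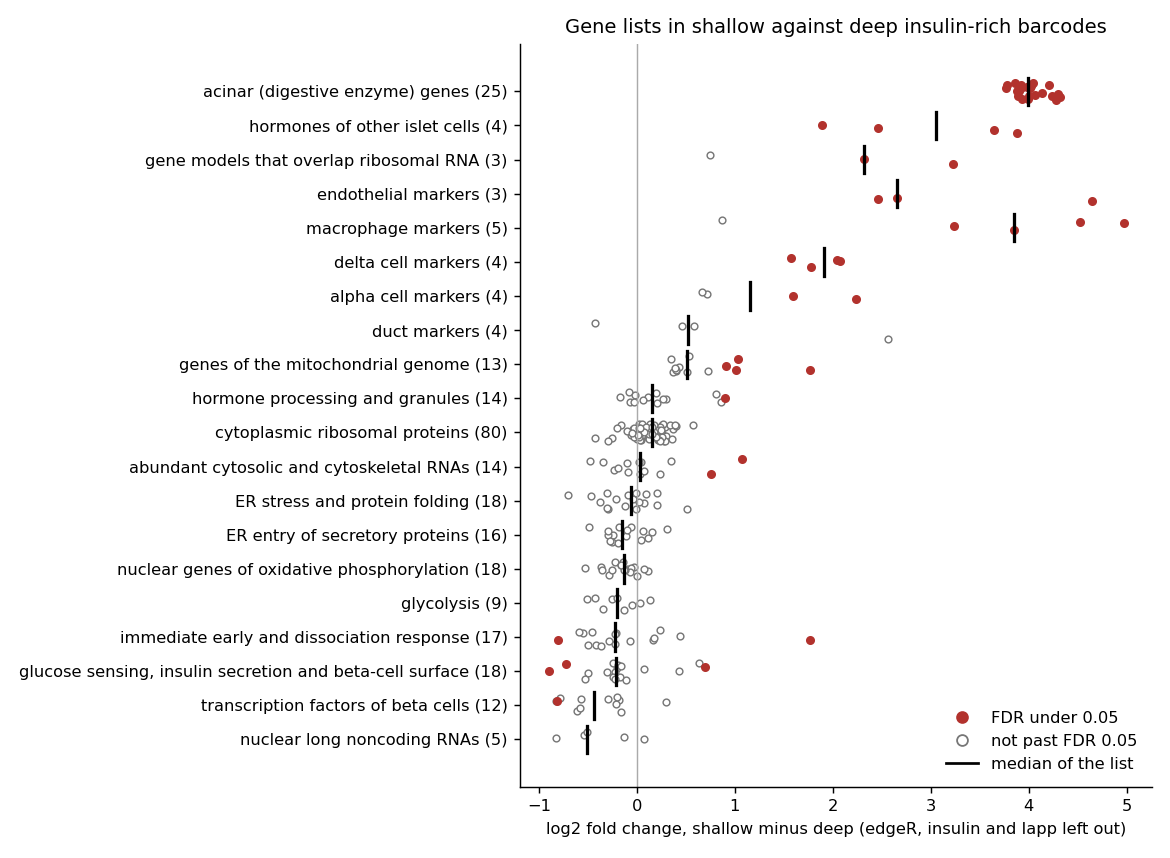
Log2 fold change of each tested gene, shallow minus deep, by gene list with the number tested in brackets; filled red points passed a false discovery rate of 0.05, open points did not, and the black bar is the list's median. Acinar genes lie between 3.77 and 4.32. Beta-cell transcription factors have a median of −0.44 with 1 of 12 above 0, and secretion genes −0.21 with 4 of 18. Ribosomal proteins have a median of 0.15 with 69 of 80 above 0. Medians are −0.14 for nuclear oxidative phosphorylation and −0.21 for glycolysis. Of all 9073 genes tested, 4071 lie above 0.

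Mitochondrial transcripts did not share one direction over mice. Their share of UMIs was 8.38%, 4.43% and 1.21% in shallow barcodes and 2.99%, 2.36% and 3.32% in deep ones, so mice 1 and 2 were higher and mouse 3 lower on the shallow side (difference 1.78 ± 3.76 percentage points, SD, n = 3 mice). The rule capped this share at 15%, so it carries no test. Against deep barcodes of 2000 to under 3000 genes the mean difference turned to −0.618. Of 13 genes 4 passed in the higher direction, mt-Nd6 (1.77), mt-Atp8 (1.04), mt-Nd4l (1.01) and mt-Nd3 (0.91), at a median of 0.51 over the list. Among all genes tested 1.23% were higher, and because of the cap these 4 calls are a description. Both mt-Atp8 and mt-Nd3 were higher in only 2 of 3 mice. Over 16 alternatives mt-Nd6 was lost in 5, mt-Nd4l in 6, mt-Atp8 in 9 and mt-Nd3 in 10. The list's median turned to −0.10 without TMM scaling and to −0.20 without mouse 1, and without mouse 3 all 13 were higher.

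Beta-cell transcription factors gave 0 higher and 1 lower of 12 tested, with a median log2 change of −0.44 where all genes had −0.05. Nkx6-1, which keeps beta cells from other islet fates, had 148, 200 and 382 CPM in shallow barcodes and 409, 388 and 421 in deep ones, so mice 1 and 2 were far apart and mouse 3 close (log2 −0.81, SE 0.21, adjusted p = 0.00873). The call was lost in 9 of 18 alternatives, DESeq2 and the thinned barcodes among them. The factors that did not pass include Pdx1 (−0.20), Mafa (−0.30), Pax6 (−0.58), Neurod1 (−0.58) and Nkx2-2 (−0.83). Pdx1, needed to form the pancreas and to keep beta cells, stood at 148, 197 and 197 CPM against 205, 203 and 228. Without TMM scaling 6 of the 12 were lower and the median was −1.07, beside −0.73 for all genes.

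Genes of glucose sensing, secretion and the beta-cell surface gave 1 higher and 2 lower of 18 tested, at a median of −0.21. Ucn3, a peptide of mature beta cells, had 190, 240 and 347 CPM on the shallow side and 437, 431 and 573 on the deep side (log2 −0.90, SE 0.21, adjusted p = 0.0014). G6pc2, which opposes glucokinase, had 571, 587 and 451 CPM against 916, 894 and 853 (log2 −0.72, SE 0.20, adjusted p = 0.0274). Both genes were lower on the shallow side in each mouse. Ucn3 was lost in 8 and G6pc2 in 9 of 18 alternatives. Tmem27, a membrane protein of beta cells, was higher by 0.69 and was lost in 12 of 18, with 0.11 left without TMM scaling. Slc2a2, the glucose transporter, had 793, 830 and 752 CPM against 931, 927 and 954 and did not pass (log2 −0.24, SE 0.20).

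Of the 14 genes for hormone processing and granules, Pam, which amidates peptide hormones, was the 1 to pass (0.90), and it was lost in 7 of 18 alternatives. The prohormone convertase Pcsk1 did not pass (0.27). Cytoplasmic ribosomal proteins gave 0 of 80 past the threshold at a median of 0.15, and the same 0 was found for 18 nuclear genes of oxidative phosphorylation, 18 genes of protein folding and ER stress, 16 genes of ER entry, 9 of glycolysis and 10 p53 targets. Of 5 tested nuclear noncoding RNAs none passed. In edgeR, each count of 0 comes beside 307 higher and 351 lower genes at an unadjusted p under 0.05 over all genes. A count of 0 does not mean no change, since the test recovered only 21% of log2 changes of 1 in simulated sums.

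Among early-response genes, Atf3, a stress-induced transcription factor, was higher (212, 357 and 173 CPM against 78.5, 54.4 and 122, log2 1.77, SE 0.23) and Btg2, an antiproliferative early gene, was lower (317, 675 and 428 against 720, 814 and 959, log2 −0.80, SE 0.20), while 15 of 17 did not pass. The actin-binding thymosins Tmsb4x (1.07) and Tmsb10 (0.75) were higher, and Tmsb10 was lost in 12 of 18 alternatives. The genes with the largest falls under the naming rule were T2 (−2.08), the nuclear receptor Rora (−1.54), the coregulator Cited2 (−1.46) and the desmosome gene Dsp (−1.31). Cited2 stood at 42.3, 47.5 and 80.9 CPM against 132, 131 and 206, lower on the shallow side in each mouse. Dsp was lost in 12 of 16 alternatives.

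**Figure D4:**
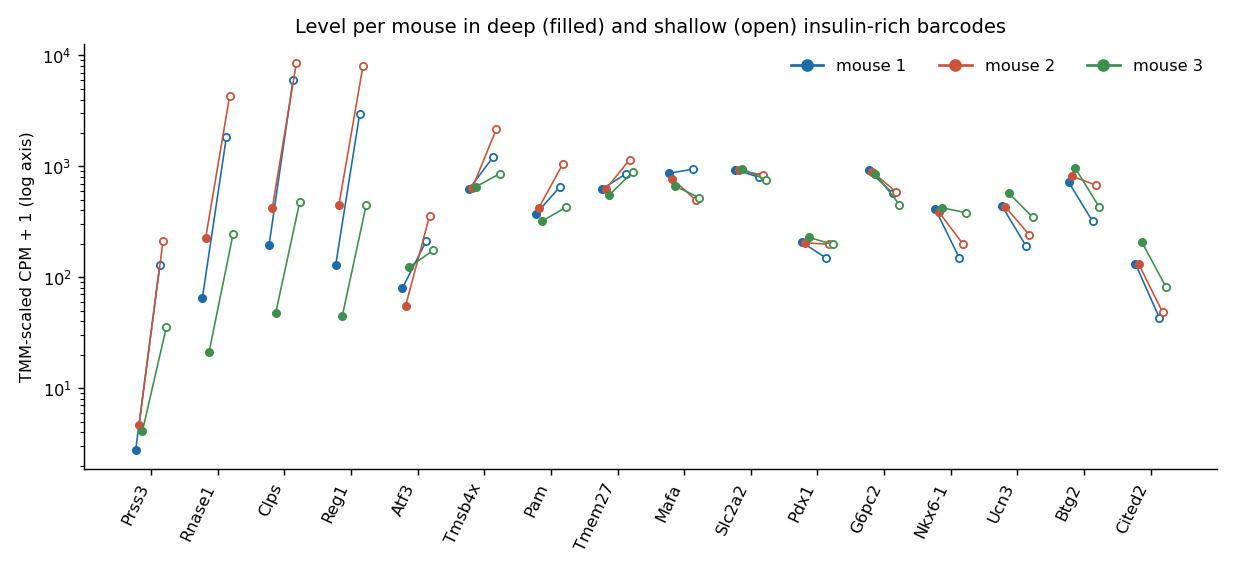
TMM-scaled CPM plus 1 (log axis) of 16 genes per mouse, filled for the deep and open for the shallow sum, with a line joining the sides of 1 mouse. The 4 acinar genes at the left lie higher on the shallow side in every mouse, Slc2a2 lies at 793, 830 and 752 against 931, 927 and 954, and Nkx6-1 goes from 409 to 148 in mouse 1 and from 421 to 382 in mouse 3.

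Depth itself sets how many beta-cell genes a barcode can show, so every barcode was thinned at random to 500 UMIs outside Ins1, Ins2 and Iapp. No shallow, deep or reference barcode had to be left out. Of 45 genes in the lists of transcription factors, secretion and granules, shallow barcodes then showed a mean of 7.13, 8.19 and 11.8 in mice 1, 2 and 3, deep barcodes 11.7, 11.7 and 11.9, and reference cells 1.75, 1.71 and 0.94. Mice 1 and 2 had fewer on the shallow side, and mouse 3 differed by 0.068. Granule genes held 4.64, 5.55 and 7.07 of the shallow means and 6.69, 6.66 and 6.70 of the deep ones. In mouse 3 granule genes were thus higher on the shallow side. Its transcription factors (1.12 against 1.38) and secretion genes (3.64 against 3.81) were lower there. Over all 45 genes the mean difference was −2.70 ± 2.34 genes (SD, n = 3 mice, lower in 3 of 3). The exact two-sided sign-flip p was 0.25, the smallest that 3 pairs allow. Before thinning the shallow barcodes showed 15.8, 17.2 and 17.3 of the 45 and the deep ones 38.7, 37.5 and 36.7.

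At least 3 of the 12 beta markers were found after thinning in 18.7%, 22.1% and 49.2% of shallow barcodes, in 60%, 63.5% and 62.5% of deep ones and in 0%, 0.532% and 0% of reference cells. Mafa and Slc2a2 gave the same order in mice 1 and 2. Mafa was seen in 22.7%, 12.5% and 30.5% of shallow and 33.8%, 36.5% and 30.8% of deep barcodes, against 1.0%, 3.19% and 1.67% of reference cells. Slc2a2 was seen in 24%, 21.5% and 33.9% of shallow and 45%, 40.4% and 45.5% of deep barcodes, against 3.0%, 3.72% and 0.208% of reference cells. For Mafa in mouse 2 the exact 95% binomial interval was 8.88 to 16.8% on the shallow and 30.8 to 42.4% on the deep side, which covers counting error only. Nkx6-1 in mouse 3 was seen in 23.7% of shallow (13.6 to 36.6%) and 23.7% of deep barcodes (19.2 to 28.7%). Other markers of the 12 went the other way in mouse 3. Pcsk1 was seen there in 30.5% of shallow against 14.5% of deep barcodes, and Trpm5 in 27.1% against 21.2%. Both were seen less often on the shallow side in mice 1 and 2.

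The size of the gap changed with the thinning. At 200 UMIs outside insulin and Iapp the means were 3.88, 4.23 and 6.59 on the shallow side and 6.08, 6.13 and 6.59 on the deep side, a difference of −1.36 with mouse 3 level. When each barcode was thinned instead to 1500 UMIs of all kinds, insulin included, the means were 10.1, 10.1 and 12 against 11.5, 10.9 and 12.1, a difference of −0.80. Here the shallow side keeps more UMIs outside insulin than the deep side, since its insulin share was lower, and 4 shallow barcodes of mouse 3 and 2, 4 and 29 reference cells were too shallow to use.

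Setting Gm42418, AY036118, mitochondrial and acinar genes aside was compared at one depth of 300 UMIs, a choice made after the data were seen. With these genes kept in, the means were 4.65, 5.66 and 8.54 on the shallow side and 8.09, 8.48 and 8.68 on the deep side, a difference of −2.13 ± 1.75 genes (SD, n = 3 mice). With them set aside the means were 8.40, 8.19 and 9.02 against 9.44, 9.26 and 9.45, a difference of −0.84 ± 0.36. The gap was thus smaller with them aside in mice 1 and 2 and larger in mouse 3. Reference cells showed 1.28, 1.17 and 0.633 with the genes in and 1.63, 1.42 and 0.598 with them aside. At least 3 of the 12 beta markers were then still found less often on the shallow side in each mouse, in 28%, 20.8% and 27.1% of shallow against 42.5%, 43% and 40.3% of deep barcodes. With the genes kept in at 300 UMIs, the shallow mean of mouse 1 lay about midway between its reference and deep means, and those of mice 2 and 3 lay nearer to the deep ones.

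**Figure D5:**
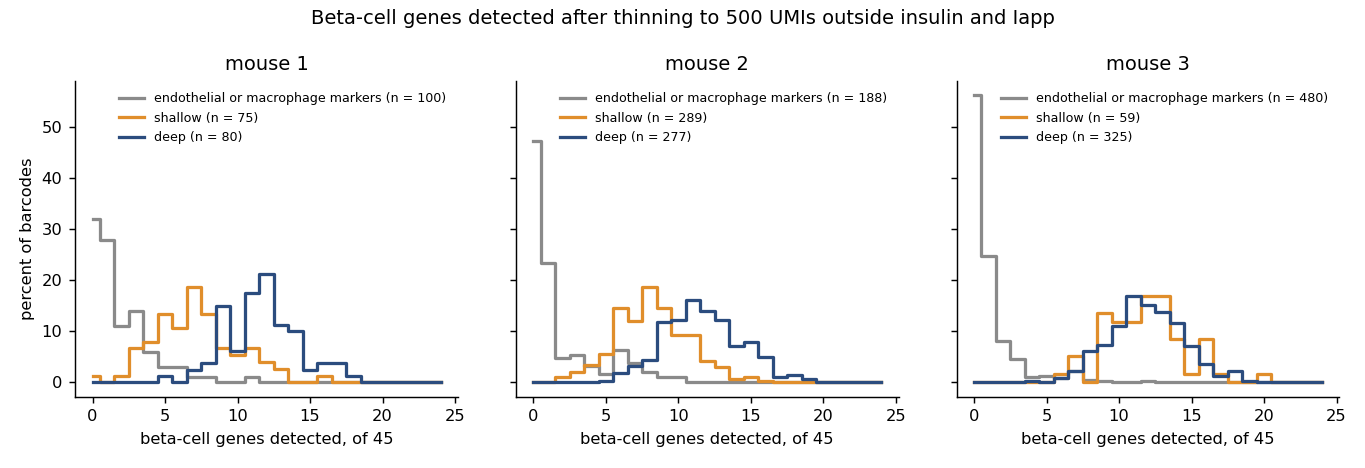
Percent of barcodes (y axis) by the number of 45 beta-cell genes detected after thinning to 500 UMIs outside insulin and Iapp (x axis), by mouse, for shallow (orange), deep (blue) and reference (grey) barcodes. The shallow curve lies left of the deep curve in mice 1 and 2 (means 7.13 against 11.7 and 8.19 against 11.7) and on top of it in mouse 3 (11.8 against 11.9).

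The 3 mice also differed in the other RNAs of their shallow barcodes. Mouse 1 had the largest gap in beta-cell genes at 500 UMIs, 4.55, with a Gm42418 share of 17.6% and an acinar share of 2.68%. Mouse 2 had a gap of 3.47 with shares of 7.88% and 6.63%, and mouse 3 a gap of 0.068 with shares of 1.38% and 0.551%. The means at 300 UMIs with and without these RNAs are given above, and what caused the gap was not tested. In sums of barcodes, fewer molecules captured per cell and less RNA per cell cannot be told apart.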

How the data were processed

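The authors deposited filtered 10x matrices of raw UMI counts per gene and barcode, 1 per library. Per the submitters' processing notes the tools and build were Cell Ranger 2.2 and mm10, while the matrix headers give software version 3.1.0. How barcodes were selected is not given in the sources used here. Members were chosen by the stated limits, and counts were summed per mouse and side without Ins1, Ins2 and Iapp. The members and gene lists were chosen with earlier results of these data known. The main test was the quasi-likelihood test of edgeR 4.0.16 (run under R 4.3.3) with the mouse as block. It was run after filterByExpr and with TMM factors, a robust fit and a Benjamini-Hochberg threshold of 0.05. In simulated sums it recovered 21% of 100 genes set to change by 1 on the log2 scale. It recovered 72% of 100 set to change by 2, with 2 false calls in all. DESeq2 1.42.0 was an alternative. The same mouse gave both sides, so the mouse pairs them. Deviations of the sides of 1 mouse correlated at 0.303, 0.829 and 0.725 over 388 genes. Between different mice the values ran from −0.768 to 0.234. The highest of these joined shallow mouse 1 and deep mouse 2, so mouse 1 was paired only weakly. Thinning drew UMIs without replacement. Doublets were not removed in the main analysis, and an alternative left out the highest Scrublet scores, 0.8% per 1000 barcodes. Genes were named by a fixed rule: the 12 largest changes each way of at least 1 on the log2 scale in all 3 mice with at least 50 CPM, up to 4 per list, and all beta transcription factor and secretion genes. Positions are from GENCODE M21. Counts per barcode carry counting error only. One result for a single gene is not reported here.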

Additional observations from a re-analysis of the deposited data

How the results depend on the processing

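The direction of the Gm42418, acinar, other hormone and insulin share differences and of the mean thinned beta-gene difference was kept under every selection, thinning and left-out mouse tried. The mitochondrial share difference was −0.618 percentage points with the deep side at 2000 to under 3000 genes and between −0.0206 and 3.73 when 1 mouse was left out. Other leave-one-out ranges were 4.12 to 11.7 for Gm42418, 1.53 to 4.37 for acinar genes, 1.53 to 2.04 for other hormones, −18.4 to −8.52 for insulin and −4.01 to −1.77 genes for the thinned difference. Counts of higher and lower genes ranged from 44 to 148 and from 1 to 15 when 1 mouse was left out. The cause was not tested for any count given next. Genes higher in shallow barcodes numbered 72 without TMM factors, 174 with no filter on low counts, 32 without the replicate block (the pairing of sides by mouse), 39 after thinning (1307 genes tested), 45 with the deep side at 2000 to under 3000 genes (2059 tested), 70 at 50% insulin, 70 with other hormones under 1% and 73 without Gm42418, AY036118, mitochondrial and acinar genes. Genes lower in shallow barcodes numbered 339 without TMM factors, 3 without the block, 5 after thinning, 4 at 50% insulin, 11 with hormones under 1%, 11 without barcodes carrying other cells' markers and 0 with DESeq2. As shares of UMIs outside insulin and Iapp, the differences were 15.5 for Gm42418, 0.371 for mitochondrial genes, 6.32 for acinar, 3.85 for other hormones and −87.2 for insulin, and the other hormone difference was 1.29 at 50% insulin and 0.796 with hormones under 1%. Ly6h ranged from −0.48, a reversal, without mouse 2 to 2.51 when 1 mouse was left out. Shallow UMIs limit the tests most in mouse 3, with 67345 in its sum.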

Other observations

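Cd79a, a B-cell receptor component, was the 1 lymphocyte marker of 5 that could be tested, and it was lower in shallow barcodes (10.6, 2.5 and 23.1 CPM against 56.1, 21.5 and 68.6, log2 −2.29, SE 0.59, adjusted p = 0.00907, lower in 3 of 3 mice). Its UMIs in the deep barcodes were 125, 141 and 354, of 125, 142 and 354 for the whole lymphocyte list, so the other 4 markers held 0, 1 and 0 UMIs. Reference cells with endothelial or macrophage markers averaged 0.00997 lymphocyte UMIs per barcode over the 3 mice, against 1.05 in deep barcodes. The call was lost in 8 of 16 alternatives.

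Spp1, osteopontin, did not pass (adjusted p = 0.971) but stood at 994 CPM in the shallow barcodes of mouse 1 against 47.5 and 23.1 in mice 2 and 3, and at 33.6, 42.3 and 10.9 on the deep side.

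Insulin-rich barcodes of 250 to under 500 genes in mouse 2 differed widely in Gm42418. Split at 100 Gm42418 UMIs, a value chosen after the data were seen, 35 of 59 lay under it with medians of 5 Gm42418, 7 acinar and 26 mitochondrial UMIs of 1475 in all, while the other 24 had 316.5, 173.5 and 143.5 of 2184.5. Their insulin shares were 67.1% and 41.9%. In the shallow barcodes of mouse 2, 7 of 289 lay under 100 Gm42418 UMIs. In mouse 1, 10 of 317 barcodes with 250 to under 500 genes lay under it, with medians of 4.5 Gm42418 and 3 acinar UMIs. In mouse 3, 32 of 33 lay under it, and the median Gm42418 of its deep barcodes was 74. The split fell together with barcode sequences that also occur in another library. In mouse 2, 29 of the 35 under the split and 0 of the 24 above it had such a sequence, and in mouse 1 it was 10 of 10 and 0 of 307. The 7 shallow barcodes of mouse 2 under the split held 6 such sequences and the 2 of mouse 1 held 2. Whether these barcodes hold reads carried over from another library was not tested.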
